A study of Mus musculus with 2 samples.

Results

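Liver sinusoidal endothelial cells (LSECs) that carried transcripts of Kit and Wnt2 were described in a sorted endothelial library from 1 adult C57BL/6 mouse with 1 sphinx copy of Gimap5 (sph/+). They were chosen by measured values, namely the raw counts of unique molecular identifiers (UMIs) in each droplet barcode. A barcode had to hold 500 genes or more, 1000 UMIs or more and no more than 15% of its UMIs in mitochondrial (mt-) genes. It then needed at least 3 UMIs of Clec4g and 1 of Stab2, which made it an LSEC, and at least 3 UMIs of Kit and Wnt2 added together. At most 1 UMI of Rspo3, 0 of Msr1 and Ntn4, at most 1 of Vwf and at most 2 of the division genes Mki67, Top2a, Cenpf and Birc5 together were allowed. The rule found 955 barcodes, called Kit and Wnt2 LSECs below, which is 16.63% of 5743 sph/+ LSECs (95% exact Clopper-Pearson interval 15.7 to 17.6). The series holds 15374 barcodes from both of its mice, counting each barcode sequence of a library with 1 suffix, of which 6727 came from the sph/+ mouse.

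The study set 1 sph/+ mouse beside 1 adult C57BL/6 mouse homozygous for the allele (sph/sph), with 1 droplet library each. Living cells without the leukocyte protein CD45 and with the endothelial protein CD31 were sorted from the liver and their RNA was captured with the 10x Genomics 3' chemistry, version v3. All cells compared within the sph/+ library carried the same genotype, and no mouse without the allele is analysed here. With 1 mouse per genotype nothing below has a replicate, so no test was made, and every interval covers counting error only.

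Blood flows through the liver sinusoid from the portal side to the central vein, and the endothelium that lines it changes its transcripts along the way. Endothelium on the central side secretes the Wnt ligands Wnt2 and Wnt9b and the Wnt enhancer R-spondin 3 (Rspo3), which maintain the metabolic programme of hepatocytes around the central vein. Kit, the receptor tyrosine kinase for stem cell factor, is also carried by central-side LSECs, while ephrin ligands, Dll4 and Msr1 mark the portal side. Position in the lobule was not measured here, so a side names the known place of a gene and not the place of a cell.

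Nearly every barcode sequence was deposited with both of the suffixes 1 and 2, and both copies held the same cell. Of 6745 sequences in the sph/+ matrix, 6391 had both suffixes. Over genes, the squared difference between the counts of a sequence under its 2 suffixes was 0.479 of their sum, below the value of about 1 that separate draws would give. It was 7.30 of the sum between a barcode and the barcode of the sequence before it in the list. The median Pearson correlation of log counts was 0.887 between suffixes of 1 sequence and 0.537 between neighbours in the list. The copies therefore differed by less than sampling noise, and each sequence was counted as 1 cell through its suffix 2 barcode, whose UMI total was a median of 1.04 times that under suffix 1. What the suffixes stand for is not given in the sources used here. On all 13136 deposited sph/+ barcodes the rule found 1895 barcodes, and on suffix 1 alone 940.

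Which cells met the rule depended on single UMIs. Levels below are in CPM, the UMIs of a gene over a set of cells scaled to the total UMIs of that set. Of the 955 Kit and Wnt2 LSECs, 604 (63.2%) also met the rule with their suffix 1 counts. Another 341 had a suffix 1 barcode that did not meet it. In 235 of these a Msr1 or Ntn4 UMI appeared under suffix 1, and 111 had at most 2 Kit and Wnt2 UMIs there. The 940 cells chosen under suffix 1 and measured with their suffix 2 counts had Kit at 616 CPM and Wnt2 at 813 CPM, against 651 and 866 CPM in the cells chosen under suffix 2. Msr1 stood at 23.5 CPM and Ntn4 at 54.4 CPM in the cells chosen under suffix 1, though 0 UMIs of both were asked of them. Cdh13, a gene outside the rule, was at 285 CPM in the cells chosen under suffix 1 and 293 CPM in those chosen under suffix 2.

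The sph/+ library held 33060506 UMIs in 6727 barcodes with suffix 2, with a median of 4491 UMIs and 2165 genes, and 6167 barcodes passed the limits. LSECs made up 93.1% of these. The sph/sph library held 36105901 UMIs in 8647 barcodes, with a median of 3466 UMIs. Both libraries shared 17 barcode sequences, and 0 of them were Kit and Wnt2 LSECs.

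The Kit and Wnt2 LSECs had a median of 4148 UMIs and 2073 genes, against 4810 UMIs and 2272 genes in the 4788 other sph/+ LSECs. Their median mt- share was 5.14%, against 5.80% in the other LSECs, and their share of UMIs in ribosomal protein genes was 7.44% against 8.38%. The part of these differences in the levels below was not tested, beyond a comparison with the other LSECs weighted to the same UMI totals. Further sets of LSECs within the same Vwf and division limits serve as neighbours. Rspo3-positive LSECs (279) had 2 or more Rspo3 UMIs. They had no limit on Kit, Wnt2, Msr1 or Ntn4, and Ntn4 was at 139.9 CPM in them. Marker-free LSECs (362) had at most 2 Kit and Wnt2 UMIs and 0 of Msr1 and Ntn4. Msr1 or Ntn4-positive LSECs (2428) had at most 2 Kit and Wnt2 UMIs, and 1501 mixed LSECs met both the Kit and Wnt2 minimum and carried Msr1 or Ntn4. The sets had median totals of 4362, 3370, 4538 and 5666 UMIs in that order, so the marker-free set was the shallowest and the mixed set the deepest.

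The genes of the rule give a description of how the cells were chosen. Kit was at 651 CPM in the Kit and Wnt2 LSECs (95% exact Poisson interval 627 to 676), against 246 CPM in the other LSECs. Wnt2 was at 866 CPM (838 to 895), against 303 CPM in the other LSECs. The sum of Kit and Wnt2 had a median of 6 UMIs per cell and reached 22. Both transcripts were found in 832 cells (87.1%), while 89 cells had no Kit UMI and 34 had no Wnt2 UMI. A single Rspo3 UMI was present in 113 cells. The rule left 182 cells with exactly 3 Kit and Wnt2 UMIs, just inside the limit, and 139 otherwise eligible cells with exactly 2, just outside it. Ptgs1 was at 456 CPM just inside and 509 CPM just outside, Gatm at 955 and 1037 CPM, Cdh13 at 192 and 152 CPM, and Wnt9b at 23.3 and 5.94 CPM. The counting intervals of both sides overlapped for all 4 genes.

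Ptgs1, Gatm and Id4 are markers given for these cells that the rule did not use. Ptgs1, the cyclooxygenase that makes prostaglandin precursors, was at 566 CPM in the Kit and Wnt2 LSECs (543 to 589), against 346 CPM in the other LSECs (339 to 353). Gatm, the first enzyme of creatine synthesis, was at 1066 CPM (1035 to 1098), against 816 CPM (805 to 827) in the other LSECs. Id4, an inhibitor of helix-loop-helix transcription factors, was at 313 CPM (296 to 330), against 239.7 CPM (234 to 246). Ptgs1 alone passed a 1.5-fold difference, and the intervals of the other 2 lay above those of the other LSECs. In the marker-free LSECs Gatm was at 944 CPM (892 to 999), below the Kit and Wnt2 LSECs, and Id4 at 343 CPM (312 to 377), with an interval that overlaps theirs. Clec4g, a C-type lectin of LSECs, had a median of 16 UMIs per Kit and Wnt2 LSEC and Stab2, the hyaluronan scavenger receptor, a median of 7. The rule asked for both, so these medians describe the choice of the cells and lend their name no support.

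**Figure D1:**
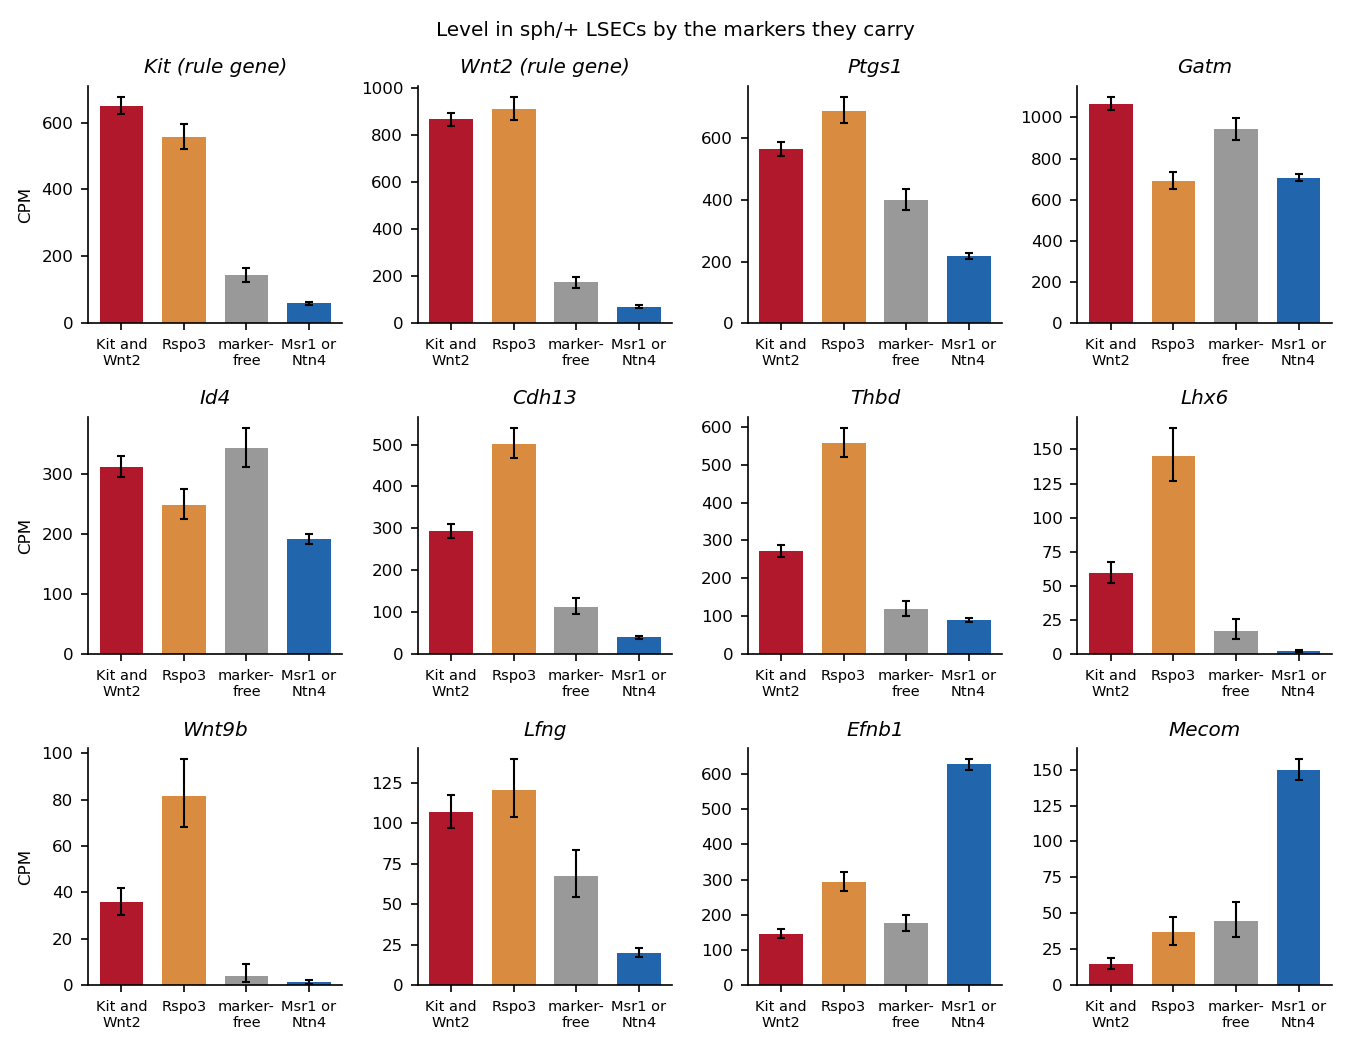
Level of 12 genes in CPM in the Kit and Wnt2, Rspo3-positive, marker-free and Msr1 or Ntn4-positive LSECs of the sph/+ mouse, with error bars for 95% exact Poisson intervals. Cdh13, Thbd, Lhx6 and Wnt9b were highest in the Rspo3-positive cells, Gatm was highest in the Kit and Wnt2 cells, and Efnb1 and Mecom were lowest there.

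Most transcripts were near the same level in the Kit and Wnt2 LSECs as in the other LSECs. Of 6889 genes measured at 20 CPM or more on either side, leaving out the 12 genes of the rule, 6207 (90.1%) lay within 1.25-fold. After 1 CPM was added to both levels, 86 genes (1.25% of those measured) were at least 1.5-fold higher in the Kit and Wnt2 LSECs and 88 genes (1.28%) at least 1.5-fold lower. At 2-fold, 21 were higher and 35 lower. The log2 ratios of the measured genes had a median of 0.01. Because the cells were selected on counts of the same library, these numbers describe the selection and are no test of it. Along the neighbouring sets, 82 of the 86 higher genes were ordered with the Kit and Wnt2 LSECs above the marker-free and these above the Msr1 or Ntn4-positive LSECs. In 45 of the 86 the Rspo3-positive level lay above all of these. Of the 88 lower genes, 67 had the opposite order. The Msr1 or Ntn4-positive LSECs made up 2428 of the 4788 other LSECs. A pick of genes against the other LSECs therefore favours these orders, and the counts give them no support. The share of all measured genes with the same orders was not counted.

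**Figure D2:**
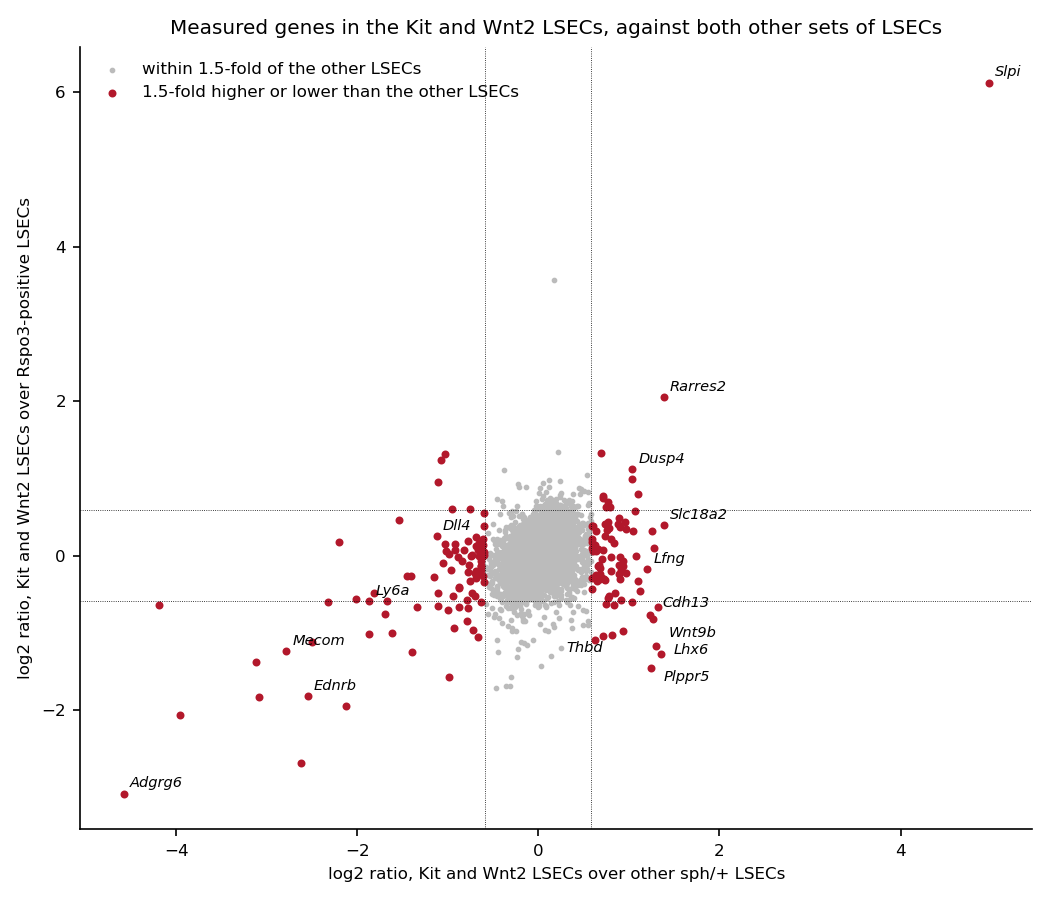
Log2 ratio of each measured gene in the Kit and Wnt2 LSECs over the other sph/+ LSECs (horizontal axis) and over the Rspo3-positive LSECs (vertical axis), with dotted lines at 1.5-fold and rule genes left out. Lhx6, Wnt9b and Cdh13 lie to the right of the centre and below it, since they were higher than in the other LSECs and lower than in the Rspo3-positive LSECs; Slpi, at the upper right, came from 1 barcode.

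Of the 39 gene lists, the one of genes known from the central side held the most higher genes. Of 15 measured members of a central-side list, 8 were at least 1.5-fold higher and 1, Cd34, lower, beside 1.25% and 1.28% of all measured genes. The median log2 ratio of the list was 0.71 beside 0.01 for all measured genes. The cells were chosen for Kit and Wnt2 and against Msr1 and Ntn4, and the list with earlier results of these data known. The count therefore describes the choice and lends the name of the cells no support. Wnt9b, the second central Wnt ligand, was at 35.8 CPM in the Kit and Wnt2 LSECs (30.3 to 42.0), against 13.9 CPM in the other LSECs (12.5 to 15.4). It was at 3.89 CPM in the marker-free and 1.14 CPM in the Msr1 or Ntn4-positive LSECs. Lhx6, a LIM homeobox transcription factor, was at 59.4 CPM, against 22.5 CPM in the other LSECs, and at 2.20 CPM in the Msr1 or Ntn4-positive LSECs. Cdh13, a cadherin held to the membrane by a lipid anchor, was at 293 CPM (277 to 310), against 124 CPM (120 to 128), and at 113 CPM in the marker-free set. Thbd, the thrombomodulin that turns thrombin to anticoagulant use, was at 273 CPM against 155 CPM in the other LSECs. The remaining higher members of that list were Ptgs1, the Notch glycosyltransferase gene Lfng at 107 against 46.0 CPM, the secreted Dickkopf family member Dkk3 at 38.9 against 18.0 CPM, and the small GTPase gene Rab3b at 51.4 against 26.0 CPM.

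Other genes with the highest ratios were not on the central-side list. Slc18a2, the vesicular monoamine transporter, was at 30.3 CPM in the Kit and Wnt2 LSECs, against 10.98 CPM in the other LSECs. Ramp3, a partner of the calcitonin receptor-like receptor, was at 38.7 against 14.9 CPM. Ackr3, a scavenging chemokine receptor, was at 28.4 against 11.2 CPM, and Plppr5, a phosphatase-related membrane protein, at 29.1 against 11.7 CPM. Ifitm10 was at 51.9 against 20.8 CPM and the olfactory receptor gene Olfr1396 at 40.1 against 16.2 CPM. All 6 had their lowest level among the sets in the Msr1 or Ntn4-positive LSECs, at 7.83 CPM or less. That set is a large part of the other LSECs, so a pick by this ratio favours such an order. Ltc4s, the synthase of the leukotriene C4, was at 149.2 CPM against 67.8 CPM in the other LSECs.

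Against the Rspo3-positive LSECs, the Kit and Wnt2 LSECs had 102 of 7043 measured genes at least 1.5-fold higher (1.45%) and 212 lower (3.01%). Of the 86 genes that were higher than in the other LSECs, 62 were within 1.5-fold of the Rspo3-positive level, 13 were 1.5-fold higher still in the Rspo3-positive LSECs and 11 were 1.5-fold lower there. The 11 included Slpi, Rarres2 and C3, most of whose UMIs came from a single barcode described below. The 13 included Lhx6, at 59.4 CPM in the Kit and Wnt2 LSECs and 145 CPM in the Rspo3-positive LSECs, Wnt9b, at 35.8 and 81.7 CPM, and Plppr5, at 29.1 and 81.7 CPM. Thbd was at 273 CPM in the Kit and Wnt2 LSECs and 558 CPM in the Rspo3-positive LSECs, and Cdh13 at 293 and 502 CPM. Kit and Wnt2, whose counts chose the cells, were at 651 and 866 CPM in the Kit and Wnt2 LSECs and 558 and 911 CPM in the Rspo3-positive LSECs, and nothing is read from this. The opposite order was found for Gatm, at 1066 CPM in the Kit and Wnt2 LSECs and 692 CPM in the Rspo3-positive LSECs, a ratio of 1.54 (1.44 to 1.65). Irf8, an interferon regulatory transcription factor, was at 120.1 and 57.5 CPM, and Lyve1, a hyaluronan receptor, at 459 and 232 CPM. Dusp4, a phosphatase of mitogen-activated kinases, was at 25.2 and 11.1 CPM, and Fgf1, a fibroblast growth factor, at 44.0 and 21.6 CPM. The log2 ratio of Fgf1 over the other LSECs was 1.03 with the barcode that held Slpi and 0.80 without it.

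Portal-side genes were lower in the Kit and Wnt2 LSECs. Of 14 measured members of a portal-side list, 0 were 1.5-fold higher and 10 were lower, beside 1.25% and 1.28% of all measured genes. The median log2 ratio of the list was -0.84 beside 0.01 for all measured genes. The absence of Msr1 and Ntn4 was part of the rule, so the list was read without them. Of the 4788 other LSECs, 2428 were Msr1 or Ntn4-positive and 1501 mixed. Genes that go along with Msr1 or Ntn4 are therefore lower by the choice of the cells. The count describes that choice and is no test of it. Efnb1, an ephrin ligand, was at 146 CPM in the Kit and Wnt2 LSECs (134.5 to 158), against 449 CPM in the other LSECs (441 to 457). Efnb2, its arterial relative, was at 39.4 CPM against 146 CPM. Dll4, a Notch ligand, was at 72.3 CPM against 159 CPM, and 213.9 CPM in the Msr1 or Ntn4-positive LSECs. Both ephrins were also lower than in the Rspo3-positive LSECs, where Efnb1 was at 294 CPM and Efnb2 at 81.1 CPM, while Dll4 was at 60.8 CPM there. Msr1 and Ntn4 were barred from the Kit and Wnt2 LSECs and not from the Rspo3-positive LSECs. The part of this in the ephrin levels was not tested. Ltbp4, which binds latent TGF-beta, was at 333 CPM against 632 CPM in the other LSECs, and the fatty acid receptor gene Cd36 at 368 against 684 CPM. Gja4, a gap junction gene of the same list, was at 363 CPM in the Kit and Wnt2 LSECs and 288 CPM in the other LSECs, within 1.5-fold and on the higher side.

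Mecom, a zinc finger transcription factor, was at 14.9 CPM in the Kit and Wnt2 LSECs (11.4 to 19.1), against 109 CPM in the other LSECs (105 to 113). It was at 36.6 CPM in the Rspo3-positive, 44.4 CPM in the marker-free and 149.9 CPM in the Msr1 or Ntn4-positive LSECs, so the Kit and Wnt2 LSECs had the lowest level of the 4 sets. Only the Kit and Wnt2 and the marker-free LSECs had to be without Msr1 and Ntn4. Ly6a, the surface antigen Sca-1, was at 308 CPM against 1126 CPM in the other LSECs. Slc45a4, a solute carrier, was at 0.961 CPM against 29.5 CPM, and Tox2, an HMG-box transcription factor, at 3.36 against 23.7 CPM. Glul, the glutamine synthetase, was at 176 CPM against 367 CPM in the other LSECs. In all, 49 of the 88 lower genes had their lowest level of the 4 sets in the Kit and Wnt2 LSECs. The pick of these genes as lower there favours this order, and the share over all measured genes was not counted.

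For some of the lower genes much of the level in the other LSECs lay in 218 cells past the Vwf or division limits, which the rule bars from the Kit and Wnt2 LSECs. Ube2c, a ubiquitin-conjugating enzyme of mitosis, was at 0.481 CPM in the Kit and Wnt2 LSECs and 26.1 CPM in the other LSECs, with 353 CPM in the 218 cells and 0.616 CPM in the Msr1 or Ntn4-positive LSECs. Edn1, the vasoconstrictor endothelin-1, had a log2 ratio of -2.63, with 2.403 CPM in the Kit and Wnt2 LSECs, 202 CPM in the 218 cells and 6.51 CPM in the Msr1 or Ntn4-positive LSECs. Adgrg6, an adhesion receptor, was at 1.20 CPM against 51.7 CPM, with 292 CPM in the 218 cells and 55.2 CPM in the Msr1 or Ntn4-positive LSECs. Ednrb, an endothelin receptor, was at 27.9 against 168 CPM, with 927 CPM in the 218 cells. Atp13a3, a polyamine transporter, was at 2.403 against 27.9 CPM, Vegfc, a lymphatic growth factor, at 2.403 against 28.5 CPM, and Plac8 at 4.81 against 28.0 CPM. Against other LSECs within the same limits, 69 genes were lower and 90 higher, and 79 of the 86 and 65 of the 88 were called again. Of the 88 lower genes, 15 no longer had a ratio past 1.5-fold once these cells were left out, among them Ube2c, Stmn1 and Hmgb2, and 8 kept the ratio but were under 20 CPM on both sides. Adgrg6 and Mecom remained, at log2 ratios of -3.96 and -2.64.

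Outside the ligands Wnt2 and Wnt9b, the Wnt pathway differed little at 1.5-fold. Of 15 measured receptors, inhibitors and targets, 1, Dkk3, was at least 1.5-fold higher and 0 were lower, beside 1.25% and 1.28% of all measured genes. The median log2 ratio of the list was 0.12. Nkd1, a feedback inhibitor of the pathway, was at 82.4 CPM in the Kit and Wnt2 LSECs and 55.9 CPM in the other LSECs, just under that fold. On the lower side Ctnnb1, the gene of beta-catenin, had a log2 ratio of -0.52, also just under it. Axin2, a target that the pathway raises in many cells, was at 2.16 and 1.87 CPM, below the floor. Wls, which carries Wnt ligands to the surface, was at 165 and 156 CPM. In the Kit pathway 0 of 19 measured genes were higher and 1 was lower, and the median log2 ratio was 0.02. The lower one was Kitl, the stem cell factor that binds Kit, at 77.6 CPM in the Kit and Wnt2 LSECs, against 139.7 CPM in the other LSECs and 163 CPM in the Msr1 or Ntn4-positive LSECs.

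Among 12 measured Notch genes, 1 was higher and 2 were lower, beside 1.25% and 1.28% of all measured genes. The median log2 ratio of the list was -0.16. Lfng, which modifies Notch receptors, was higher, and the ligand genes Dll4 and Jag1 were lower. Jag1 was at 4.33 CPM in the Kit and Wnt2 LSECs, 22.3 CPM in the other LSECs and 3.89 CPM in the marker-free LSECs. Notch1, the receptor, was at 403 and 431 CPM, and the target gene Hes1 at 287 and 428 CPM, just under 1.5-fold lower. Of 12 measured angiocrine factors, which endothelium secretes to act on the tissue, 2 were higher and 3 lower. Gas6, a ligand of TAM receptor kinases, was at 529 CPM in the Kit and Wnt2 LSECs (507.5 to 552) and 317 CPM in the other LSECs (310.3 to 324). The other higher one was Wnt9b, and the lower ones were Dll4, Kitl and Angpt2, a Tie2 ligand at 15.6 and 24.2 CPM. Bmp2, which controls hepatocyte hepcidin, was at 2416 and 1976 CPM, within 1.5-fold.

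Prostaglandin and vasoactive genes held 2 higher (Ptgs1 and Ramp3) and 2 lower (Edn1 and Ednrb) of 13 measured members, with a median log2 ratio of 0.09. For this and the next lists, the share over all measured genes was 1.25% higher and 1.28% lower. Calcrl, the receptor that Ramp3 accompanies, was at 497 CPM in the Kit and Wnt2 LSECs and 509.8 CPM in the other LSECs, and its partner Ramp2 at 939 and 779 CPM. Of 14 measured chemokine and cytokine genes, 3 were higher and 5 lower. The 3 higher ones were all atypical chemokine receptors, which take up chemokines without signalling through G proteins: Ackr3, Ackr4, at 67.0 against 35.1 CPM, and Ackr2, at 70.2 against 46.4 CPM. Ackr1, of the same family, was lower, at 11.1 against 25.01 CPM. The other lower ones were Cxcl9 and Cxcl10, chemokines that interferon-gamma induces, Il1a and Il33. Cxcl10 was at 28.6 CPM in the Kit and Wnt2 LSECs, 95.04 CPM in the other LSECs and 224 CPM in the marker-free LSECs. Of 28 measured interferon and antigen presentation genes, 0 were higher and 5 lower (Cxcl10, Gbp3, Irf7, Cxcl9 and Isg15), and a median log2 ratio of -0.14. The 21 measured axon guidance genes had 1 higher member, Sema3d, a secreted semaphorin at 26.4 against 12.3 CPM, and 3 lower ones, the ephrin genes Efnb1, Efnb2 and Efna1.

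Genes shared by LSECs stood at like levels on both sides. Of 21 measured members, 1 was higher and 0 were lower, beside 1.25% and 1.28% of all measured genes, with a median log2 ratio of 0.11. Plvap, a protein of fenestral diaphragms, was the higher one, at 263 CPM in the Kit and Wnt2 LSECs and 174 CPM in the other LSECs. Fcgr2b, the inhibitory Fc receptor, was at 2424 and 2243 CPM, and the lineage transcription factor Gata4 at 249 and 275 CPM. Of 6 measured GIMAP genes, 0 were higher and 0 lower. Gimap5, the gene that carries the sphinx allele, was at 123 CPM in the Kit and Wnt2 LSECs and 102 CPM in the other LSECs. Of 11 measured markers of continuous endothelium, 0 were higher and 3 (Edn1, Cd34 and Ly6a) lower.

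**Figure D3:**
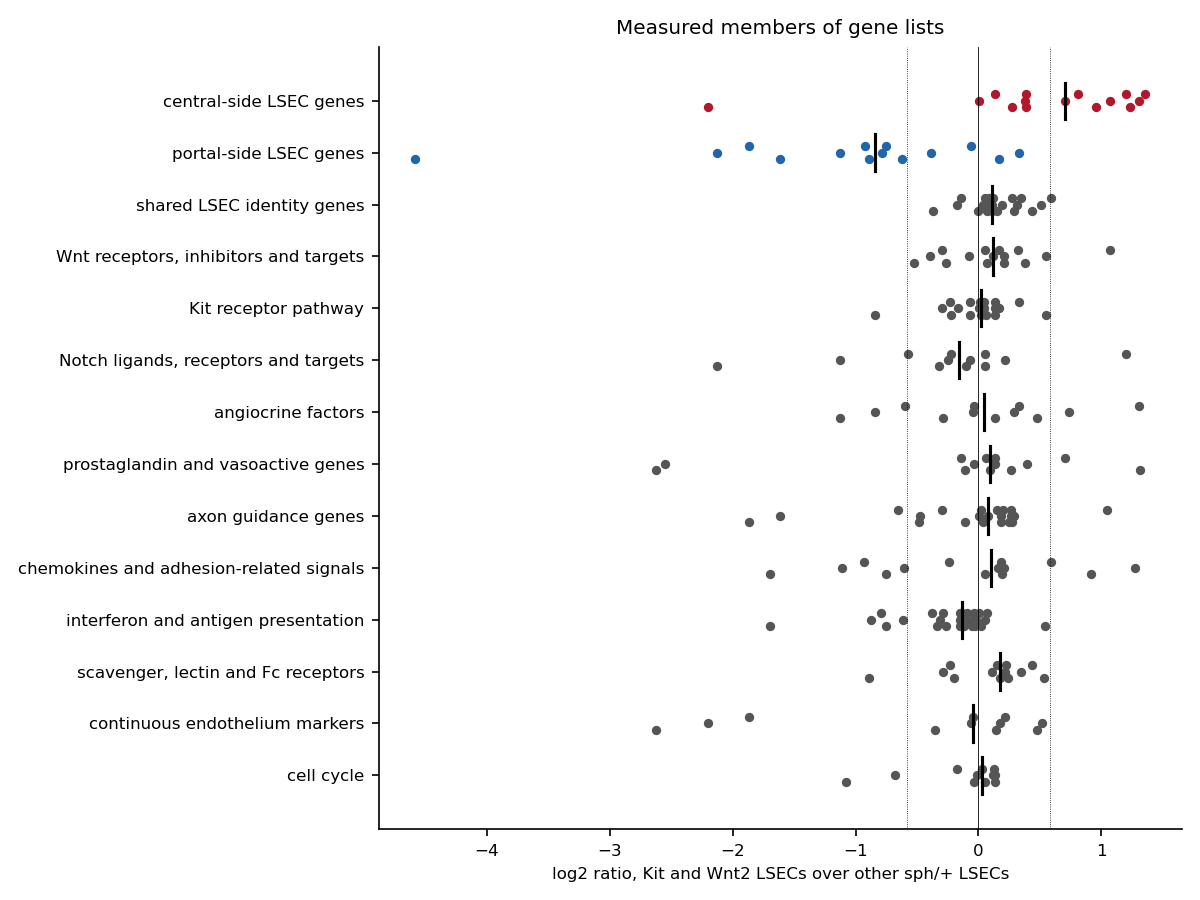
Log2 ratio, Kit and Wnt2 LSECs over other sph/+ LSECs, of the measured members of 14 gene lists, with the genes of the rule left out. Each point is a gene, the black bar is the median of a list, and dotted lines mark 1.5-fold; the median was 0.71 for central-side and -0.84 for portal-side genes, and between -0.16 and 0.17 for the other lists.

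Markers of other cell types were read beside these results. Summed over the lists, hepatocyte markers were at 455 CPM in the Kit and Wnt2 LSECs and 450.4 CPM in the other LSECs, stellate and fibroblast markers at 348 and 316 CPM, cholangiocyte markers at 321 and 395 CPM, and Kupffer cell markers at 76.4 and 45.4 CPM. In the stellate and fibroblast sum, 166 of the 329 Dcn UMIs of the Kit and Wnt2 LSECs came from the Slpi barcode described below. C1qb, a complement gene of macrophages, made up most of the Kupffer difference, at 33.6 CPM in the Kit and Wnt2 LSECs and 15.5 CPM in the other LSECs, while Clec4f, which defines Kupffer cells, was at 2.16 and 2.71 CPM. Of 12 leukocyte markers, 10 were at 0 in the Kit and Wnt2 LSECs. The mast cell genes Cpa3, Mcpt4, Tpsb2, Cma1, Fcer1a and Ms4a2 were all at 0, so the defining transcripts of another Kit-bearing cell type were not found. The part of carried-over RNA in the levels above was not tested.

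The gene with the highest ratio came from 1 cell. All 477 Slpi UMIs of the Kit and Wnt2 LSECs were in a single barcode of 19183 UMIs. That barcode also held 209 UMIs of C3, 78 of Rarres2, 166 of Dcn, and 12 each of Upk3b and Msln, genes of mesothelium and fibroblasts, beside 23 of Clec4g and 6 of Kit and Wnt2. Without it 81 genes were higher and 93 lower, and Slpi, Rarres2, C3, Anxa1 and Ier3 no longer passed 1.5-fold. The log2 ratio of Slpi was 4.97 with the barcode and -1.88 without it. Slpi, C3, Rarres2 and the hepatocyte gene Mup20, at 53.1%, were the 4 higher genes with at least 20% of their UMIs in 1 barcode.

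The Kit and Wnt2 LSECs were not uniform. They were divided into sets of 318, 318 and 319 cells by the Kit and Wnt2 UMIs per total UMI, an order that uses the genes of the rule. From the lowest to the highest set, Cdh13 was at 181, 314 and 414 CPM, and the intervals of neighbouring sets did not overlap. Lhx6 was at 32.0, 56.2 and 98.2 CPM and Wnt9b at 19.5, 30.7 and 62.5 CPM. Thbd was at 181, 301 and 361 CPM and Ptgs1 at 482, 591 and 647 CPM. These genes were thus highest in the cells with the most Kit and Wnt2 per total UMI. Depth also differed, with median totals of 4684, 4053 and 3902 UMIs from the lowest to the highest set, and its part was not tested. Gatm was at 948, 1168 and 1108 CPM and did not keep this order. Dll4 was at 96.6, 64.4 and 49.5 CPM and Efnb2 at 50.2, 33.0 and 32.5 CPM.

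**Figure D4:**
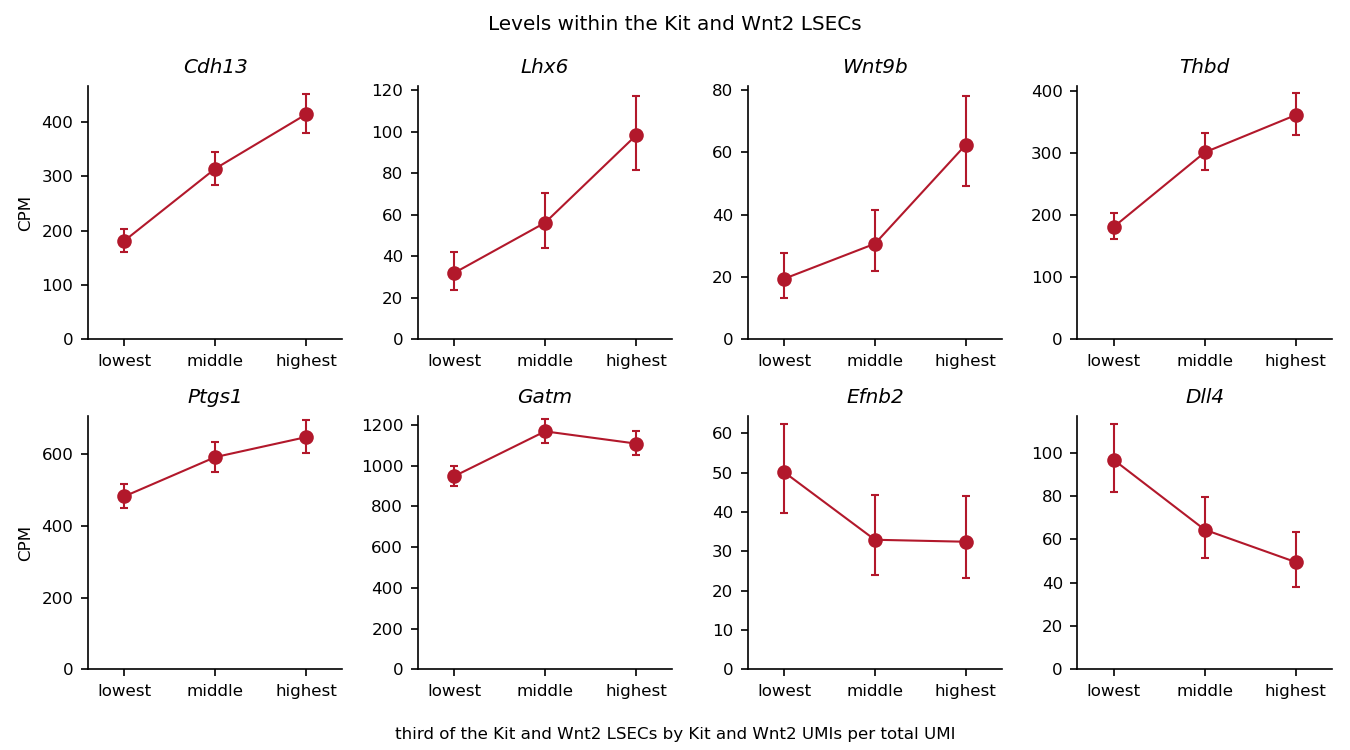
Level in CPM of 8 genes outside the rule in the Kit and Wnt2 LSECs, divided into 3 sets of 318, 318 and 319 cells by Kit and Wnt2 UMIs per total UMI, with error bars for 95% exact Poisson intervals. Cdh13, Lhx6, Wnt9b, Thbd and Ptgs1 were highest in the highest set, and Dll4 was lowest there.

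Choosing cells on either gene alone left the other gene free. Among cells with the same limits on Rspo3, Msr1, Ntn4, Vwf and division genes, 297 had 0 Kit UMIs, 566 had 1 to 2 and 454 had 3 or more. Wnt2 was at 509.7, 669 and 839 CPM in these sets, and Ptgs1 at 421, 507 and 602 CPM. Chosen on Wnt2 alone, 221 cells had 0 Wnt2 UMIs, 477 had 1 to 2 and 619 had 3 or more, and Kit was at 325, 476 and 624 CPM. Kit and Wnt2 were thus each higher in the cells with more of the other. Cdh13 was at 147, 243 and 311 CPM by Kit and at 100.3, 198 and 326 CPM by Wnt2. Id4 was at 328, 324 and 312 CPM by Kit, and did not move with it. The sets also differed in depth, with medians of 3522, 3828 and 4357 UMIs by Kit and 3184, 3714 and 4306 UMIs by Wnt2, and its part in these orders was not tested.

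Shares of cells with a UMI were compared after each cell was thinned to 2000 UMIs, which left out 33 Kit and Wnt2 LSECs and 88 other LSECs. Ptgs1 was then found in 65.6% of the Kit and Wnt2 LSECs and 45.4% of the other LSECs. Cdh13 was found in 38.9% and 17.2%, Lhx6 in 10.5% and 3.38%, and Gatm in 86.2% and 73.4%. Mecom was found in 3.25% of the Kit and Wnt2 LSECs and 16.6% of the other LSECs. The orders are those of the CPM. As a background, 40 barcodes without Stab2 but with at least 10 UMIs of cholangiocyte or stellate markers were thinned alike. They had a median of 8866 UMIs before thinning, against 4204 in the Kit and Wnt2 LSECs. Ptgs1 was found in 12.5% of them, Gatm in 7.50%, and Cdh13, Lhx6 and Mecom in 0 of 40, which allows a share of up to 7.50%. The Mecom share of the Kit and Wnt2 LSECs was below that limit.

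Cell-to-cell spread was near that of counting for most genes. Over 3782 genes with at least 0.1 UMIs per 2000, the variance of thinned counts over their mean had a median of 1.03 in the Kit and Wnt2 LSECs. It was 1.33 for Kit, 1.10 for Wnt2, 1.32 for Gatm, 1.07 for Ptgs1 and 1.31 for Id4. The counts of Kit and Wnt2 chose the cells, so the rule shapes their spread and nothing is read from it. It was 1.42 for Cdh13 and 1.93 for Ly6a, whose levels thus varied more between these cells than those of most genes. For Ly6a the value was 6.155 in the other LSECs, above that in the Kit and Wnt2 LSECs. The largest values were 26.9 for Alb, 24.1 for Spp1 and 17.9 for Clu. At least 96.3% of the UMIs of each lay in the top 5% of these cells. Fabp4, a fatty acid carrier, stood at 3.17, Cyp26b1, which breaks down retinoic acid, at 2.51, and the immediate early genes Egr1 and Fos at 2.44 each. In the other LSECs Fabp4 was at 3.61, Cyp26b1 at 2.55, Egr1 at 2.06 and Fos at 1.93.

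Few cells of the sph/sph library met the same rule. It found 9 of 6599 sph/sph barcodes past the limits (0.136%, 0.0624 to 0.259), against 955 of 6167 sph/+ barcodes (15.5%, 14.6 to 16.4). Only 91 sph/sph barcodes met the LSEC criteria, of which the 9 are 9.89%. The 9 had a median of 10882 UMIs, against 4148 UMIs in the Kit and Wnt2 LSECs, and the rule asks for raw counts. Their Kit was at 292 CPM (197 to 417) and their Wnt2 at 146 CPM (81.8 to 241), against 651 and 866 CPM in the Kit and Wnt2 LSECs. Fcgr2b was at 39.0 CPM in the 9 barcodes, against 2424 CPM in the Kit and Wnt2 LSECs, while Thbd was at 1266 against 273 CPM and Ednrb at 915 against 27.9 CPM. Lhx6 was at 175 CPM (104 to 277) in the 9 barcodes against 59.4 CPM, and Ramp3 at 166 CPM (96.4 to 265) against 38.7 CPM. Wnt9b was at 58.4 CPM (21.4 to 127) against 35.8 CPM. Cdh13 was at 146 CPM (81.8 to 241) against 293 CPM, and Ptgs1 at 97.4 CPM (46.7 to 179) against 566 CPM. The levels of the 9 barcodes thus differed from those of the sph/+ cells in both directions. Genotype and library cannot be told apart.

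The 2 barcode sets are copies of the same cells and no replicates. Of 138 named genes, 107 had a ratio with suffix 1 inside the counting interval of the ratio with suffix 2, 31 lay outside it, and 4 changed sign. With suffix 1 alone, 82 genes were higher and 84 lower, and 66 of the 86 and 65 of the 88 genes were called again. Over the 604 cells that met the rule under both suffixes, 110 genes were higher and 109 lower.

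**Figure D5:**
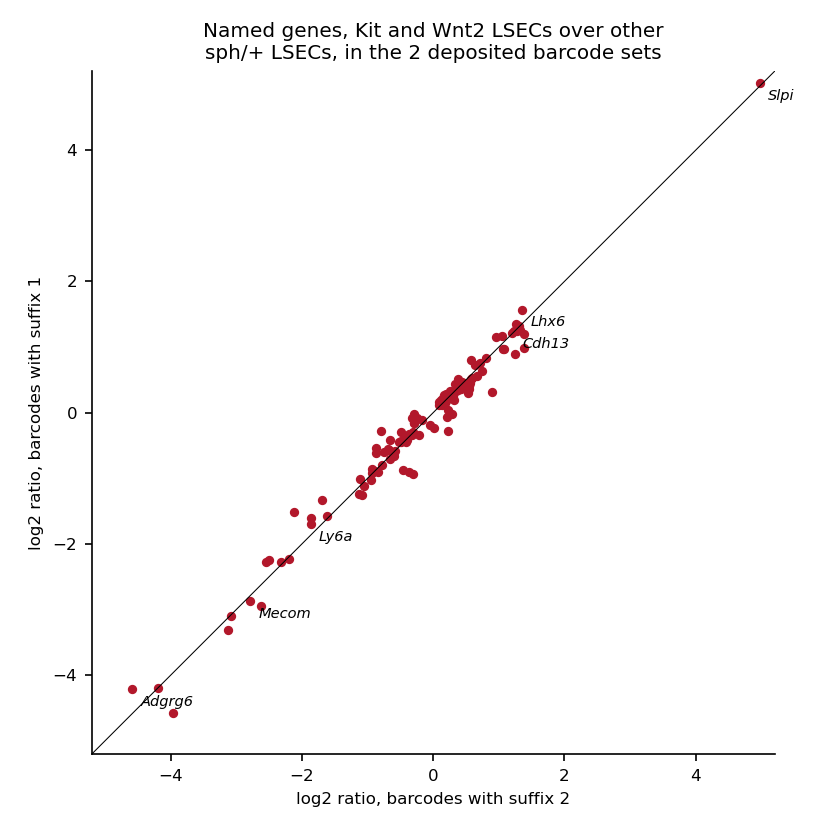
Log2 ratio of the named genes, Kit and Wnt2 LSECs over other sph/+ LSECs, from barcodes with suffix 2 (horizontal axis) and with suffix 1 (vertical axis), each with the cells its own counts chose; the line marks equal values. Each point is a gene, and the values with suffix 2 run from -4.58 for Adgrg6 to 4.97 for Slpi; 31 of the 138 points lie outside their counting interval.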

How the data were processed

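The deposited values are raw UMI counts per gene and barcode over 31053 genes, which the authors made with Cell Ranger 3.0 against mm10, per the submitters' processing notes; software version 3.1.0 stands in the matrix headers, per the file headers. The annotation release is not given in the sources used here. Counts of barcodes with suffix 2 were summed over cells and scaled to CPM. A gene was measured at 20 CPM in either sum and counted at 1.5-fold after 1 CPM was added to both. The plan was made for all deposited barcodes and was changed once the suffixes were found to repeat the same cells. Named genes were the 12 highest and 12 lowest ratios (leaving out rule, mt-, ribosomal, haemoglobin, immunoglobulin, sex-linked, unnamed and non-endothelial marker genes), the markers, the rule genes and up to 4 genes of each of 39 lists. Ltc4s, Irf8, Dusp4, Fgf1, the genes of single barcodes and other genes named as examples were chosen after their values were seen. The cells and lists were chosen with earlier results of these data known. Doublets were kept: the automatic Scrublet threshold (scanpy 1.11.5) marked 0% of 6167 barcodes, and removal of the highest scores at an expected rate of 4.93% was an alternative. Intervals are 95% exact Poisson or Clopper-Pearson, and for a ratio a conditional exact binomial interval. Python 3.11.15, numpy 2.4.6, scipy 1.17.1, pandas 2.3.3 and matplotlib 3.10.9 were used, and the ratio step was tested on simulated data.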

Additional observations from a re-analysis of the deposited data

How the results depend on the processing

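The counts of higher and lower genes depend on the floor. At 5 CPM 190 genes were higher and 254 lower, and at 50 CPM 50 and 46. Against the marker-free LSECs alone, 192 were higher and 109 lower, and 44 of the 86 and 21 of the 88 genes were called again. The share of LSECs that met the rule was 15.27% at 2000 UMIs, 8.88% with at least 6 Kit and Wnt2 UMIs and 10.52% for cells chosen under both suffixes. Of 2484 gene values (138 named genes under 18 settings) 2046 stayed inside the counting interval and 423 left it, beside the 15 below. In all 82 changed sign, 22 of these against the marker-free LSECs, where Id4 was at -0.13. Among genes outside the rule that were past 1.5-fold, these 15 values changed sign. With the rule at 2000 UMIs these were Mup20 (-1.33), Rarres2 (-0.94) and Slpi (-1.97), and with at least 3 Kit UMIs Mup20 (-1.48), Rarres2 (-1.12) and Slpi (-4.35). Against the marker-free LSECs they were Cdk1 (0.53), Il33 (0.18), Jag1 (0.12), Plac8 (1.71) and Vegfc (0.0287). Within the same Vwf and division limits they were Cdk1 (0.12) and Cdkn2c (0.02), and without the barcode with Slpi they were Rarres2 (-0.49) and Slpi (-1.88). Beyond the cells left out, the cause was not tested. The comparisons within the same limits, without that barcode and over the other barcode sets were chosen after seeing the data. Depth limits the rule itself, since 1 UMI moves a cell in or out. No paired analysis was possible because each genotype had 1 mouse and the labels give no replicate numbers.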

Other observations

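Several of the higher genes are neighbours on a chromosome, a pattern found after the values were seen. On chr2:36036326-36252272 (GRCm38), from Ndufa8 to Ptgs1, 6 of the 7 genes in the files were measured and 5 of these were at least 1.5-fold higher in the Kit and Wnt2 LSECs. The stretch was chosen because it held the most higher genes, and its ends are higher genes. Its count was thus set by the choice and cannot be held against the 1.25% over all measured genes. How often measured genes lie as near to each other was not counted. Ndufa8, a subunit of respiratory complex I, was at 325 CPM in the Kit and Wnt2 LSECs and 206 CPM in the other LSECs. Lhx6 was at 59.4 and 22.5 CPM, Mrrf, a mitochondrial ribosome recycling factor, at 50.7 and 31.9 CPM, the long noncoding RNA Gm13431 at 21.2 and 9.79 CPM, and Ptgs1 at 566 and 346 CPM. Rbm18, between Lhx6 and Mrrf, was at 92.8 and 70.8 CPM, within 1.5-fold. In the Msr1 or Ntn4-positive LSECs these 6 genes were at their lowest level of the 4 sets, with Ndufa8 at 149.9 CPM and Mrrf at 24.2 CPM. Except for Rbm18 they were picked as higher than in the other LSECs, which favours this order. Whether neighbours share reads was not tested, and Rbm18 and Mrrf overlap on opposite strands.

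Other higher genes that lie within 200 kb of each other were Enho and Cntfr, Tmem176a and Tmem176b, and Rnase4 and Ang, which overlap on 1 strand and can share reads. Enho, which encodes the peptide adropin, was at 80.7 CPM in the Kit and Wnt2 LSECs and 48.9 CPM in the other LSECs, and Cntfr, a cytokine receptor subunit, at 72.3 and 43.8 CPM. Among the lower genes, Armcx2, Armcx4 and Armcx6 lie together, as do Cxcl9 and Cxcl10.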
